A study of Mus musculus with 7 samples.

Results

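The genes described here are those of mouse chromosome 8 for which at least 50 allele-assigned fragments were counted in all 7 libraries, without Zfp42, Klf2, Junb, Ier2, Col4a1 and Col4a2. Of 22556 genes counted in all, 1083 lay on chromosome 8 and 496 met this rule. Of the 6 genes left out by name, Zfp42, Col4a1 and Col4a2 had enough fragments, and the other 3 did not. Of the 496, 4 overlap another gene on the same strand, and these include none of the genes named for a departure. The chromosome was chosen by its measured values, a higher Cast share and a higher total level in iXist-ChrX-Dom, so that difference is given as a description. Counts of genes called against no difference stand beside their background and support nothing, since they use the same contrast. Departures of single genes from the level of the chromosome are the tests of interest.

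Gene dosage is the number of copies of a gene from which a cell transcribes. In a hybrid cell each copy can be followed by its sequence differences, so that an extra copy of one parental chromosome raises the output of that allele, leaves the other allele where it was and raises the total by less than the allele. A gene follows its dosage when output rises with copy number, and is called buffered or compensated when it does not. Cultured mouse embryonic stem cells are known to gain whole chromosomes, and chromosome 8 is among those most often gained.

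The 7 libraries hold chromatin-associated RNA (ChrRNA-seq), which is rich in nascent transcripts, from female 129/Sv x CAST/EiJ hybrid mouse embryonic stem cells (mESC). The iXist-ChrX-Dom line (4 libraries) and the iXist-ChrX-Cast line (3 libraries) both carry a doxycycline-inducible TetOn promoter in place of the Xist promoter, on the domesticus (129S, hereafter Dom) or the castaneus (Cast) X chromosome. Both were induced with 1 µg/mL doxycycline for 10 days without differentiation. The methods state that cells were maintained on inactivated mouse fibroblasts. Before experiments they were separated from these by pre-plating and plated on dishes without feeders. The labels and methods give 1 clone for each line, so that clone, line and side of induction cannot be told apart. The deposited names of iXist-ChrX-Cast replicates 1 and 2, however, carry a clone code other than that of their labels and of replicate 3, and whether all 3 libraries came from 1 clone could not be settled. Copy number itself was not measured in these libraries, and 1 extra Cast copy serves only as a reference value. The study calls the libraries of each line replicates, and those of iXist-ChrX-Dom replicate experiments. Since separate cultures are not stated, p-values measure the spread between these libraries, part of which may be technical.

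The counted fragments numbered 14877384 to 24309806 per library, and 44.2% to 46.4% of them were assigned to an allele. Summed levels of 8 embryonic stem cell markers were 1049 to 1231 CPM (fragments scaled to library size) in iXist-ChrX-Dom against 1343 to 1532 in the other line. Esrrb and Tfcp2l1 made up most of each sum. Pou5f1 averaged 73.6 CPM in iXist-ChrX-Dom against 66.6 in replicates 1 and 2 of the other line, and Dppa5a 37.6 against 33.8. The rest of the 8 were lower in iXist-ChrX-Dom by these means. The 6 fibroblast markers summed to 20.7 to 33.6 and 23.7 to 31.1 CPM. The 5 neural precursor markers summed to 21.2 to 44.7 and 15.1 to 22.2 CPM. Nes (10.4 to 25.8 CPM) and Pax6 (3.66 to 18.9 CPM) made up nearly all of this, while Sox1 was at 0 in every library. The part of these differences in the results was not tested. Replicate 3 of iXist-ChrX-Cast stood apart on chromosome 8 and is therefore given separately. Unless it is named, iXist-ChrX-Cast below means replicates 1 and 2.

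In the iXist-ChrX-Cast line the 496 genes had a median Cast share, the percentage of allele-assigned fragments that carried Cast bases, of 45.2% in replicate 1 and 45.3% in replicate 2. In iXist-ChrX-Dom the medians were 63.9%, 63.5%, 64.2% and 63.4%. The groups were thus 63.7% ± 0.363 (SD, n = 4) and 45.3% ± 0.0667 (SD, n = 2), and no library of one reached the other. On autosomes other than 1, 5, 8, 12 and 14, which serve as the comparison, 6435 genes that passed the same count limit had medians of 46.8% ± 0.154 and 46.6% ± 0.0635.

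**Figure D1:**
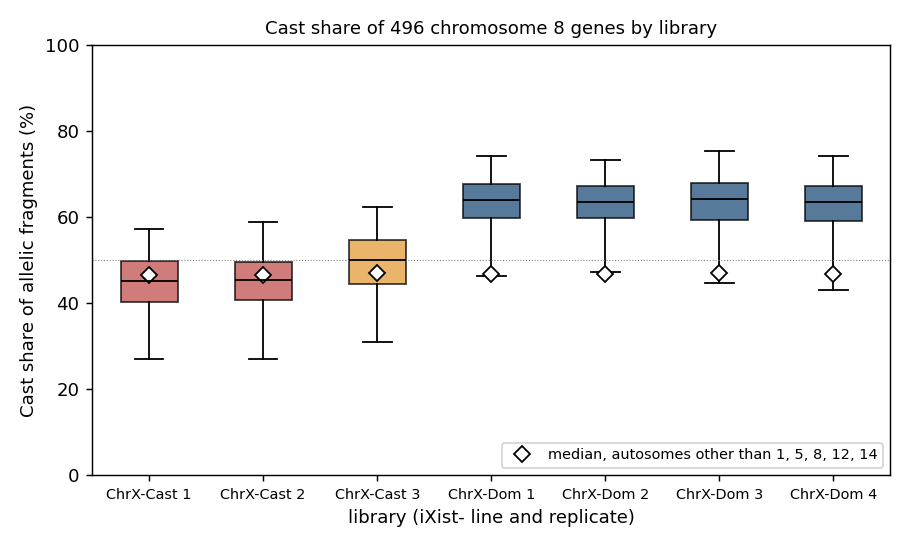
Cast share (%) of the 496 chromosome 8 genes in each of the 7 libraries. Boxes span the quartiles with the median, whiskers the central 90% of the genes, and diamonds give the median of the comparison autosomes. The 4 iXist-ChrX-Dom medians sit between 63.4% and 64.2%, replicates 1 and 2 of iXist-ChrX-Cast at 45.2% and 45.3%, and replicate 3 at 50.0%.

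On the log2 odds scale, on which 1 extra Cast copy with no other change adds exactly 1, the median shift of the 496 genes was 1.08. The median absolute deviation (MAD) of the genes about it was 0.19, against 0.15 to 0.24 on the 14 comparison autosomes and 0.15 to 0.19 on the 13 without chromosome 11. The shift lay between 0.5 and 1.5 for 474 genes (95.6%), below 0.5 for 10 and above 1.5 for 12. Of the 10 genes below 0.5, Triml1, Triml2 and Cntnap4 departed from the chromosome in the test described later, and the other 7 had standard errors of 0.21 to 0.49. Of these 7, named after their values were seen, Atp4b, Sgcz, Mthfsd and Ntpcr had an unadjusted 95% interval that held 0 and not 1, and Csmd1, Homer3 and Rnf150 one that held both. In 480 genes every iXist-ChrX-Dom library had a higher Cast share than both iXist-ChrX-Cast libraries. This uses the contrast by which the chromosome was chosen, and the share over all genes was not counted, so nothing is read from it.

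Tested against no difference, 472 of 496 genes (95.2%) had a higher Cast share in iXist-ChrX-Dom and 0 a lower one, with 482 at an unadjusted p under 0.05. Over all 9197 genes tested the background called higher was 12.5%, and since the chromosome was chosen on this contrast nothing is read from the difference. Among the 24 genes not called, Nfatc3, a transcription factor activated by calcineurin, and Sgcz, a sarcoglycan, had a Cast share below 10% in all 7 libraries, and Atp4b, the beta subunit of the gastric proton pump, above 90%. These 3 were picked out after their values were seen. Of the 124 genes of lowest allelic depth, with medians of 75 to 222 fragments per library, 108 were called and the MAD of the shift was 0.28. Of the 124 genes of highest depth, with 1011 fragments or more, 123 were called and the MAD was 0.13.

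Just inside the limit of 50 fragments, Homer3 and Fcho1 had 50 fragments in their shallowest library, with mean Cast shares of 51.6% and 51.0% in iXist-ChrX-Dom against 44.3% and 28.4%. Just outside it, Coa6 had 49 fragments (67.6% against 52.9%) and Trappc2l and Tubb3 had 48 (73.9% against 61.3%, and 75.6% against 57.7%).

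The alleles were then followed separately. The median level of the Cast allele in the 4 iXist-ChrX-Dom libraries was 1.81, 1.95, 1.92 and 1.93 times that of iXist-ChrX-Cast. The Dom allele stood at 0.853, 0.925, 0.887 and 0.932 times. In gene-wise fits the median was 1.91-fold for the Cast allele and 0.898-fold for the Dom allele, where an extra Cast copy with no other change would give 2 and 1. The Cast allele was higher in 492 of 496 genes and between 1.5-fold and 2.5-fold in 397, and the Dom allele was lower in 346 (69.8%). These counts use the contrast by which the chromosome was chosen and have no background beside them, so nothing is read from them.

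On the comparison autosomes the same fits gave 1.04-fold for both alleles. Set against them, the Cast allele of chromosome 8 was 1.83-fold and the Dom allele 0.867-fold. Chromosome 5 was the autosome most like it in the opposite direction. Its 670 genes had a median shift of -1.05, a Cast allele at 0.568-fold and a Dom allele at 1.18-fold in iXist-ChrX-Dom relative to iXist-ChrX-Cast.

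Total levels followed with less than the 1.5-fold that 3 copies in place of 2 would give. The per-library medians of iXist-ChrX-Dom were 1.32, 1.34, 1.34 and 1.37 times iXist-ChrX-Cast, or 1.34 ± 0.0230 (SD, n = 4). In the gene-wise fit the median log2 difference was 0.44, which is 1.35-fold, and 1.31-fold over the comparison autosomes. The quartiles lay at 1.20-fold and 1.51-fold, and 467 of 496 (94.2%) were above 1. This count repeats the contrast of the choice and has no background beside it, so nothing is read from it.

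Against no difference, 180 of 496 genes had a higher total in iXist-ChrX-Dom and 3 a lower one, with backgrounds of 3.56% and 4.04% of the 15384 genes tested, and again nothing is read from the difference. The count fell to 3 higher and 0 lower without replicate 1 or without replicate 2 of iXist-ChrX-Cast, to 85 higher and 2 lower without iXist-ChrX-Dom replicate 3, and to 73 and 0 with all 7 libraries. The 95% interval of a gene's total reached ± 0.32 (log2) in the median, more than the distance from 0.44 to the 0.58 of an extra copy. It held 1.5-fold but not 1 for 304 genes, 1 but not 1.5-fold for 107 and both for 43. It lay wholly between for 24, above 1.5-fold for 14 and below 1 for 4. For the share, the interval held a shift of 1 but not 0 for 403 genes, 0 but not 1 for 6, both for 8, and lay wholly above 1 for 67 and wholly between for 12. These counts describe single intervals and are not adjusted for the number of genes. The 6 genes whose share interval held 0 but not 1 include Atp4b, whose shift could hardly be measured. The references of 1.5-fold and 0.58 hold for equal alleles, and a gene of lower Cast share would gain less in total.

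Across the 496 genes the share shift and the total difference ran nearly independently (Spearman's rho 0.034), while the differences of the Cast and Dom alleles ran together (rho 0.70). The total difference had a rho of 0.21 with gene length and of 0.20 with the Cast share of a gene in iXist-ChrX-Cast. The share shift had one of -0.25 with that same Cast share. All these values come from the same 6 libraries and share their counts and scaling, so they are descriptions.

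The single genes were then tested against the chromosome, with the median shift of all 499 tested genes of chromosome 8 (1.08) and the median total of its 818 expressed genes (1.37-fold) as the null. For the Cast share, 1 of 496 genes was above the level of the chromosome and 9 were below, against backgrounds of 2.45% and 2.17% of 9197 genes, of which 205 of the 425 called were X-linked. Of the tested genes of chromosome 8, 2.00% departed, against 2.64% (170 of 6435) on the 14 comparison autosomes. Chromosome 11 held 72 of these 170, and without it, a choice made after the data were seen, the other 13 had 1.71% (98 of 5744). The balance of directions depended on the null. Against a shift of exactly 1, the value of 1 extra Cast copy, 5 genes were above and 2 below, and 3 of these 7 were among the 10. For totals, 4 genes were above and 8 below, against 0.572% and 1.31% of 15384 genes. The null of the total is the same at every Cast share. A gene of low Cast share would gain less in total from an extra Cast copy. Only Triml1 departed in both, and at its low Cast share these are not separate findings. The unadjusted p was under 0.05 in 51 genes for the share and 96 for the total. On the comparison autosomes 1.38% of genes departed in total.

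**Figure D2:**
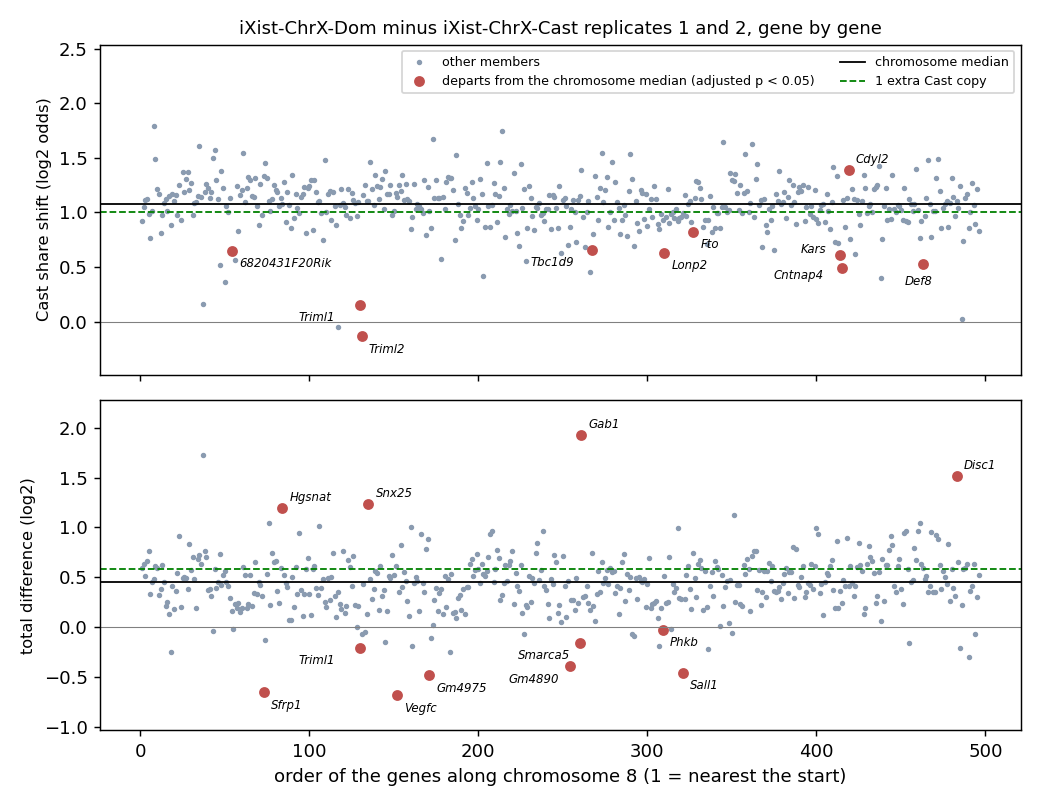
Difference between the lines for each of the 496 genes in their order along chromosome 8, as Cast share shift (log2 odds, upper) and total difference (log2, lower). Red points departed from the median of the chromosome (black line). The green dashed line is the value of 1 extra Cast copy, in the lower panel from equal alleles. Most points lie close to the black line along the whole chromosome.

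Both counts depended on the iXist-ChrX-Cast libraries. Without replicate 1 or without replicate 2, with the lone library assumed to vary like the others, 2 and 1 genes departed in share and 1 and 2 in total. Without iXist-ChrX-Dom replicate 2, 16 departed in share. With the replicate number as a block, total departures rose from 12 to 28 and share departures were 11. With the X-linked genes left out of the fit, a choice made after the data were seen, 5 genes departed in share, all below, and 11 in total. Taking all 7 libraries, 9 departed in share, of which 5 were among the 10, and 3 in total. Every departure named below kept its direction in each of these fits.

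Triml1 and Triml2, which encode tripartite motif family-like proteins and are known from early embryos, were the furthest below of the genes that passed the test. They are neighbours, 41.6 kb apart (mm10, Triml1 at chr8:43129806-43141486 on the minus strand, Triml2 at chr8:43183121-43193884 on the plus strand). The Cast share of Triml2 was 26.7%, 18.6%, 25.8% and 26.1% in iXist-ChrX-Dom against 24.8% and 27.0% in iXist-ChrX-Cast, with 23.6% in replicate 3. The groups overlapped, and no library came near the rise of the other genes. The shift was -0.14 ± 0.15 (SE), a departure of -1.21 (95% interval -1.53 to -0.90, adjusted p = 1.01e-05). This departure held in all 17 alternative fits run.

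Triml1 was transcribed almost wholly from the Dom allele in both lines. Its Cast share was 9.47%, 6.36%, 12.01% and 10.7% in iXist-ChrX-Dom, against 7.54% and 9.62% in iXist-ChrX-Cast and 9.82% in replicate 3. The departure was -0.93 (interval -1.37 to -0.49, adjusted p = 0.0106) and held in 15 of 17 alternative fits. It was lost without iXist-ChrX-Cast replicate 2 (-0.70, adjusted p = 0.492) and with limma (adjusted p = 0.277).

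The totals of the pair did not reach those of the chromosome either. At their low Cast shares an extra Cast copy would raise the total by less than the chromosome level. Triml1 measured 57.2, 55.5, 67.1 and 67.7 CPM in iXist-ChrX-Dom, below the 71.1 and 71.7 of iXist-ChrX-Cast, with 67.1 in replicate 3. Its total was 0.866-fold and its departure -0.66 ± 0.12 (SE, adjusted p = 0.0243). This call was lost without either iXist-ChrX-Cast library (adjusted p = 0.259 and 0.228) and with all 7 libraries (0.0681). Triml2 measured 71.2, 64.9, 93.2 and 87.3 CPM against 78.9 and 86.8, with overlapping groups. Its departure of -0.52 ± 0.15 (SE) did not pass (adjusted p = 0.102).

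The nearest members on either side rose with the chromosome. Frg1, on the proximal side, had a share shift of 1.10 ± 0.12 (SE), and Fat1, on the distal side, 1.16 ± 0.05. Neither departed (adjusted p = 0.976 and 0.432). The counted members leave a gap of more than 1 Mb on each side of the pair.

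The promoters of the pair are shown because the neighbours departed together, and those of Smarca5 and Gab1 because these neighbours departed in opposite directions, as given below. Each is the 250 bases before the start site in RefSeq (GRCm38.p6), read 5′ to 3′ on the strand of the gene, and the capitals mark each CG, the letters searched, which read the same on both strands. The windows are chr8:43141487-43141736 on the minus strand, chr8:43180286-43180535 on the plus strand, chr8:80739460-80739709 on the minus strand and chr8:80880520-80880769 on the minus strand. The start site of Triml2 in RefSeq lies 2585 bases before that of the counted gene, and that of Gab1 40 bases.
Triml1: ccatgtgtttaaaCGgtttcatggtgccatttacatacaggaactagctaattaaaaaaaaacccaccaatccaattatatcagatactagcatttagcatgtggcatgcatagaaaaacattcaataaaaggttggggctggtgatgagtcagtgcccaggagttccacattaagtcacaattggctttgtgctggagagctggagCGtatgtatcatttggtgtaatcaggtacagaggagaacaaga
Triml2: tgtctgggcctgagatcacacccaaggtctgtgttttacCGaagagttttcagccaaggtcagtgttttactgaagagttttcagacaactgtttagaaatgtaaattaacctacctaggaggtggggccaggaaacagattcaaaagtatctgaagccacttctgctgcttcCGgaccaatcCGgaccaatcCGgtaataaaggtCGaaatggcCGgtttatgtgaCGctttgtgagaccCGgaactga
Smarca5: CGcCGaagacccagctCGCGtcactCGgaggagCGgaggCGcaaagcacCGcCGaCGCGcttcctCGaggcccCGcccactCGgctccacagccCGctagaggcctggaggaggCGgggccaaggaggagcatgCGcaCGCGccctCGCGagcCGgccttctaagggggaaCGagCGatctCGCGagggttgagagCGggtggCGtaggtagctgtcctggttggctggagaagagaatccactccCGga
Gab1: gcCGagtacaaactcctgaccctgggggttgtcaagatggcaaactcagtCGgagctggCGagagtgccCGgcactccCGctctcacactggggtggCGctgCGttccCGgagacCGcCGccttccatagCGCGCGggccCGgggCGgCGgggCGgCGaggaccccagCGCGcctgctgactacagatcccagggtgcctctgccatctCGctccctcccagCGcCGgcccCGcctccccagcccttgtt
The window of Triml1 held 2 CG and that of Triml2 held 8, against 29 for Smarca5 and 24 for Gab1. A window was found for 323 of the 496 genes, with a median of 18 CG, and 6.5% of them held 5 or fewer. Among 32851 windows of all genes the median was 6, 92.1% held at least 1 and 49.6% held 5 or fewer. Windows were found for 15 of the 21 departing genes, with 2 CG (Triml1) to 41 (Gm4890), so that few CG were not shared by the departing genes.

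Of the other genes below the chromosome in share, Cntnap4, a neurexin-family adhesion protein, had Cast shares of 64.2%, 66.5%, 67.6% and 64.1% in iXist-ChrX-Dom against 54.3% and 59.9% in iXist-ChrX-Cast. The groups did not overlap, but the shift of 0.49 ± 0.15 (SE) was less than that of the chromosome (departure -0.59, adjusted p = 0.0212). Lonp2, a peroxisomal protease, had 46.3%, 53.6%, 50.3% and 49.9% against 41.2% and 37.6% (departure -0.45, adjusted p = 0.0299). Kars, the lysyl-tRNA synthetase, had 86.7%, 82.1%, 83.1% and 82.9% against 76.4% and 77.7%.

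Kars thus lay high in Cast share in every library. Its departure was -0.47 (adjusted p = 0.0478) and held in 5 of 17 alternative fits. Def8 departed by -0.55 (adjusted p = 0.0381), with 51.9% to 55.4% against 44.2% and 45.1%, and held in 5 of 16, and it was lost with the replicate block (-0.45, adjusted p = 0.155). Cntnap4 held in 10 and Lonp2 in 12 of 17. Each of these was lost in DESeq2, with adjusted p-values of 0.246 to 0.633, and in limma as well except for Def8, and without either iXist-ChrX-Cast library. Their total departures were -0.22 to 0.14 (log2), and none passed.

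The remaining 3 genes below were Fto, an RNA demethylase, Tbc1d9, a Rab GTPase-activating protein, and the transcript 6820431F20Rik, named here because they complete the count. Fto had 58.9%, 61.5%, 61.3% and 59.2% against 46.3% and 45.9%. Its departure of -0.26 (adjusted p = 0.0184) rested on 2627 to 6835 allelic fragments per library and held in 12 of 17 alternative fits. It was lost with limma (adjusted p = 0.267), with DESeq2 (0.382) and against a shift of 1 (-0.18, adjusted p = 0.148). Tbc1d9 departed by -0.42 (adjusted p = 0.0217) and 6820431F20Rik by -0.42 (adjusted p = 0.0443), and they held in 9 and 4 of 17 fits. With the replicate block 6820431F20Rik was lost (-0.32, adjusted p = 0.0909). None of the 3 passed without iXist-ChrX-Cast replicate 1 or without replicate 2.

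Cdyl2, a chromodomain protein, was the gene above the chromosome in share. It had a Cast share of 46.2%, 45.8%, 49.3% and 50.0% in iXist-ChrX-Dom against 26.2% and 26.0% in iXist-ChrX-Cast, a departure of 0.31 ± 0.08 (SE, adjusted p = 0.0374). Replicate 3 had 35.3%, between the groups. The departure held in 6 of 17 alternative fits and was 0.13 (adjusted p = 0.785) with all 7 libraries. It was also lost with the replicate number as a block (0.19, adjusted p = 0.212) and with the sample set as a covariate, replicates 1 and 2 against 3 and 4 (0.19, adjusted p = 0.116). Within iXist-ChrX-Dom the share was lower in replicates 1 and 2, the set to which the compared iXist-ChrX-Cast libraries belong, than in 3 and 4. Its total varied within the lines, with 159, 145, 252 and 287 CPM against 166 and 152.

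Of the 12 genes whose total departed, 11 did not depart in share. Gab1, an adaptor protein of receptor tyrosine kinase signalling, had the highest total difference of all 496 genes. It measured 334, 305, 382 and 436 CPM in iXist-ChrX-Dom against 105 and 86.7 in iXist-ChrX-Cast, with 143 in replicate 3. The groups were far apart. The total was 3.80-fold and the departure 1.47 ± 0.16 (SE, adjusted p = 0.00197). The Cast allele of Gab1 was 7.08-fold and the Dom allele 2.68-fold. Its Cast share was 47.4% to 50.5% against 26.7% and 27.7%, a departure of 0.31 that did not pass (adjusted p = 0.0534). The total departure was lost without iXist-ChrX-Cast replicate 1 (1.64, adjusted p = 0.0600) or replicate 2 (1.30, adjusted p = 0.0980).

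Smarca5, the ATPase of ISWI chromatin remodelling complexes, lies 24974 bases from Gab1 on the same strand and departed in the other direction. It is described here because of this position, which was seen with its values. Its levels of 371, 352, 307 and 291 CPM overlapped the 359 and 380 of iXist-ChrX-Cast, and replicate 3 had 275. The departure was -0.62 ± 0.11 (SE, adjusted p = 0.0270), with a Cast allele at 1.44-fold and a Dom allele at 0.650-fold. Without replicate 3 and with the sample set as a covariate the departure was -0.46 (adjusted p = 0.00690). With all 7 libraries it was -0.39 and did not pass (adjusted p = 0.262), and it was also lost without either iXist-ChrX-Cast library or without iXist-ChrX-Dom replicate 3 (adjusted p = 0.0768). Usp38, the next member on the other side of Gab1, did not depart (share shift 0.96, total 0.30, adjusted p = 0.715 and 0.415).

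Snx25, a sorting nexin, measured 72.0, 69.3, 67.4 and 75.9 CPM against 29.8 and 30.5, with 38.3 in replicate 3. Hgsnat, the lysosomal acetyltransferase of heparan sulfate breakdown, measured 34.7, 33.8, 35.6 and 33.6 CPM against 14.8 and 15.4, with 20.5 in replicate 3. Disc1, a scaffold protein of the centrosome, measured 15.8, 16.4, 16.2 and 18.9 CPM against 6.30 and 5.46, with 11.5 in replicate 3. In all 3 the lines did not overlap. With replicate 3 included, the gap between the lines was wider than the spread within them for Snx25 and Hgsnat, but for Disc1 the iXist-ChrX-Cast libraries spread more widely than the gap. Their departures were 0.78 ± 0.11, 0.74 ± 0.12 and 1.07 ± 0.16 (SE), with adjusted p = 0.00823, 0.0176 and 0.0130. Their share departures were 0.03, -0.0022 and 0.03, and the Dom allele was 1.50-fold, 1.30-fold and 1.75-fold. With all 7 libraries Snx25 passed (0.76, adjusted p = 0.0211), while Disc1 (0.75, adjusted p = 0.226) and Hgsnat (0.67, adjusted p = 0.0726) did not. None of the 3 passed without either iXist-ChrX-Cast library (adjusted p = 0.129 to 0.246).

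Sfrp1, a secreted antagonist of Wnt signalling, measured 51.0, 48.3, 49.8 and 49.4 CPM against 76.0 and 80.4. Replicate 3 had 39.5, below every other library. The total was 0.635-fold and the departure -1.11 ± 0.10 (SE, adjusted p = 0.000622), which passed without each library in turn but not with all 7 (-0.75, adjusted p = 0.156). Without replicate 3 and with the sample set as a covariate the departure was -1.09 (adjusted p = 1.98e-05). The Cast allele was 0.942-fold and the Dom allele 0.371-fold, the lowest of all the members.

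Vegfc, a growth factor of lymphatic vessels, measured 559, 520, 416 and 421 CPM against 832 and 711, and 442 in replicate 3. Replicate 3 thus lay within the range of the other line, nearest to replicates 3 and 4 of that line. The departure was -1.14 ± 0.13 (SE, adjusted p = 0.00263), and -0.82 (adjusted p = 0.114) with all 7 libraries. Without replicate 3 and with the sample set as a covariate it was -0.95 (adjusted p = 5.38e-05). With 5605 to 9938 allelic fragments per library its share was precise, at 66.2% to 67.3% against 47.7% and 48.0%, a departure of 0.06 (interval -0.03 to 0.16, adjusted p = 0.625).

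Sall1, a zinc finger transcription factor, measured 92.6, 71.3, 77.1 and 86.8 CPM against 114 and 111, with 81.9 in replicate 3. Its departure was -0.91 ± 0.12 (SE, adjusted p = 0.00502), and 0.0709 was the adjusted p with all 7 libraries. The predicted genes Gm4975 (8.84 to 10.3 against 13.0 and 14.4 CPM) and Gm4890 (16.5 to 27.1 against 29.5 and 30.0 CPM) departed by -0.94 and -0.85 (adjusted p = 0.0133 and 0.0493). Sfrp1, Vegfc and Sall1 were also the 3 genes whose total was lower when tested against no difference. In Sall1, Gm4975 and Gm4890 the Cast allele was 1.05-fold to 1.15-fold and the Dom allele 0.529-fold to 0.578-fold. Without iXist-ChrX-Cast replicate 1 only Sfrp1 of these 5 passed, with adjusted p-values of 0.112 to 0.319 in the others. Without replicate 2 Sfrp1 and Vegfc passed, with 0.101 to 0.339 in the others. Gm4890 was also lost without iXist-ChrX-Dom replicate 3 or 4 (adjusted p = 0.0715 and 0.0780).

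**Figure D3:**
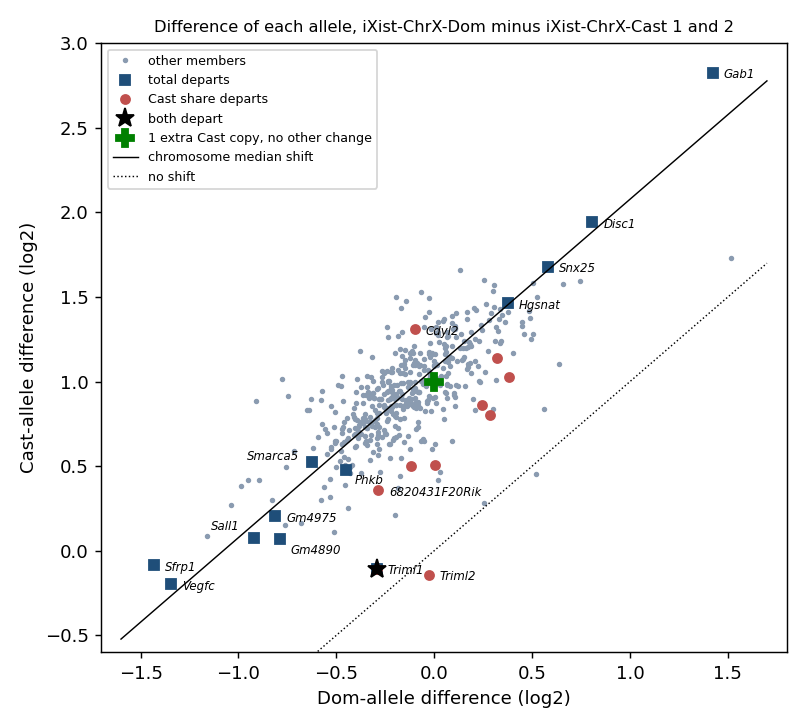
Difference of the Cast allele (y) against that of the Dom allele (x), both log2, iXist-ChrX-Dom minus replicates 1 and 2 of iXist-ChrX-Cast, for the 496 genes. Genes whose total departed (squares) spread along the line of the chromosome's median shift, from Sfrp1 and Vegfc to Gab1, and genes whose Cast share departed (circles) lie off it. Triml1 and Triml2 lie near the dotted line of no shift.

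**Figure D4:**
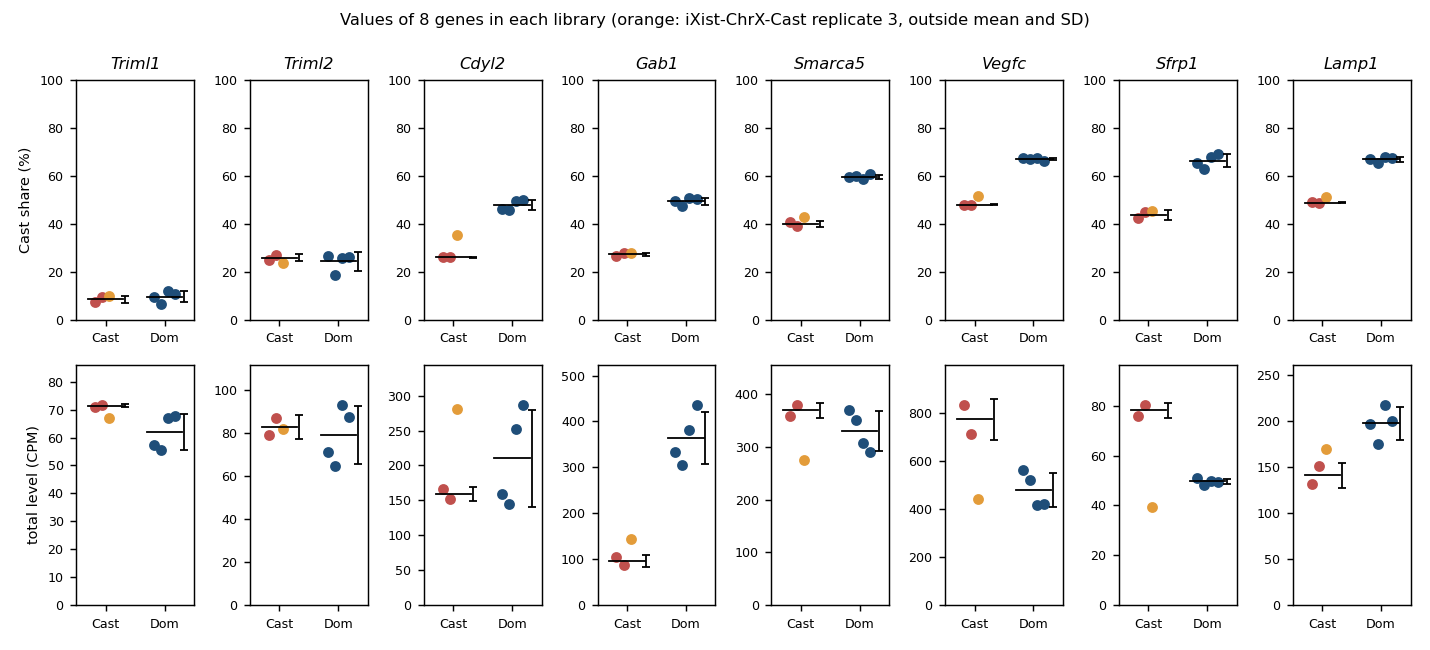
Cast share (%, upper row) and total level (CPM, lower row) of 8 genes in each library, with the mean and SD of iXist-ChrX-Dom (n = 4) and of replicates 1 and 2 of iXist-ChrX-Cast (n = 2). Replicate 3 of iXist-ChrX-Cast is in orange. The Cast share of Triml1 and Triml2 is level between the lines, Lamp1 follows the chromosome, and replicate 3 lies at or below iXist-ChrX-Dom for the totals of Vegfc, Sfrp1 and Smarca5.

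The 3 genes nearest the chromosome medians, chosen among the 124 of highest allelic depth, were Clcn3, a chloride-proton exchanger, Mcph1, a regulator of chromosome condensation, and Lamp1, a lysosomal membrane glycoprotein. Lamp1 had Cast shares of 67.0%, 65.5%, 67.9% and 67.2% against 49.0% and 48.6%, and totals of 197, 175, 218 and 200 CPM against 132 and 151. Clcn3 had 66.9% to 69.2% against 50.3% and 50.4%, and 324 to 408 CPM against 245 and 265. Both show the common pattern of the chromosome, with the Cast allele at 1.90-fold and 1.78-fold and the Dom allele at 0.893-fold and 0.844-fold. Mcph1 started lower in Cast share, with 37.1% and 38.1%, and reached 54.7% to 56.5%.

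Gene groups of the chromosome, listed from general knowledge with earlier results of these data known, all lay near its medians. Against no difference, 95.2% of the 496 members were called higher in share, and 36.3% higher and 0.605% lower in total. Over all genes tested these values were 12.5%, 3.56% and 4.04%. The counts called in each group repeat the contrast by which the chromosome was chosen, and nothing is read from them. Of 36 listed transcription and chromatin regulators 25 were members. All 25 were called higher in Cast share, with a median shift of 1.06, and 8 were higher and 1 lower in total, with a median of 1.25-fold. Sall1 and Smarca5 departed in total. Cnot1, the scaffold of the CCR4-NOT deadenylase complex, measured 947 to 968 CPM against 713 and 734, and Ankrd11, a chromatin regulator, 648 to 970 against 507 and 549. Neither departed (total adjusted p = 0.781 and 0.700).

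All 22 members of 25 listed genes of DNA replication and cell division were called higher in share (median shift 1.13), and 12 of them in total (median 1.39-fold). None departed in either test, and totals ran from 0.16 (Nek1) to 0.97 (Fanca) on the log2 scale. Pcm1, a protein of centriolar satellites, had Cast shares of 66.7% to 70.8% against 51.5% and 51.6%. Its total was 1.17-fold and did not depart (adjusted p = 0.345).

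Of 17 listed translation genes 9 were members, all 9 higher in share (median shift 1.03) and 1 in total (median 1.35-fold). Aars, the alanyl-tRNA synthetase, had totals of 163 to 229 CPM against 148 and 195, which overlapped. Kars alone departed, in share.

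Of 20 listed genes of mitochondria and energy metabolism 15 were members, all 15 higher in share (median shift 1.07) and 5 in total (median 1.41-fold). Lonp2 departed in share. Phkb, the beta subunit of phosphorylase kinase, departed in total, by -0.48 ± 0.10 (SE, adjusted p = 0.0371). It measured 368, 352, 337 and 346 CPM, within the 385 and 330 of iXist-ChrX-Cast, and the call was lost in 5 of 15 alternative fits, among them without either iXist-ChrX-Cast library and with all 7 libraries (adjusted p = 0.126).

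Of 22 listed genes of ubiquitin and protein turnover 16 were members, 14 of them higher in share (median shift 1.09) and 6 in total (median 1.27-fold), and 0 departed in either test. The pair not called in share, Rnf150 and March1, had shifts of 0.46 ± 0.44 and 0.58 ± 0.40 (SE). Vps35, the core of the retromer complex, had 65.7% to 67.2% against 47.0% and 48.0%, and 200 to 241 CPM against 191 in both iXist-ChrX-Cast libraries.

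Of 24 listed genes of cell adhesion and signalling 20 were members, 17 of them higher in share (median shift 1.10), with 8 higher and 1 lower in total (median 1.36-fold). Totals ran from -0.66 (Sfrp1) to 1.93 (Gab1) on the log2 scale, the widest range of the 6 groups, and these ends were the group's departures. Fat1, an atypical cadherin, measured 904 to 1183 CPM against 736 and 789. Pard3, a polarity protein, measured 776 to 860 against 472 and 569. Neither departed (total adjusted p = 0.929 and 0.394).

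Every stretch of the chromosome carried the shift, which was slightly larger near its start (rho -0.15 with position over 496 genes of the same libraries). In blocks of 20 Mb, holding 43 to 97 genes each by their midpoint, the median Cast share of iXist-ChrX-Dom was 62.8% to 65.5% and that of iXist-ChrX-Cast 44.6% to 46.5%. The median shift was 1.13 to 1.14 in the 3 blocks before 60 Mb and 1.01 to 1.08 in the 4 beyond. The median total ran from 1.27-fold between 20 and 40 Mb to 1.46-fold in the most distal block.

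Replicate 3 of iXist-ChrX-Cast had a median Cast share of 50.0% and a total at 1.14 times replicates 1 and 2, with the Cast allele at 1.26 times and the Dom allele at 1.01 times. In 402 of 496 genes its Cast share lay between the means of the 2 groups, a count given without a background from other chromosomes. On the comparison autosomes it had 47.0%, close to the other libraries. The rise was uneven along the chromosome. For the 258 genes before 80 Mb the median share was 47.2% against 45.3% and 45.1% in replicates 1 and 2, and the total was 1.03 times theirs. For the 238 genes beyond 80 Mb the share was 51.8% against 45.1% and 45.5%, and the total 1.26 times.

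In replicate 3, 59.3% of the proximal genes and 83.6% of the distal genes had a Cast share above both other replicates of the line. The same percentage was not counted on the comparison autosomes, so nothing is read from either value. By 10 Mb block the median difference in log2 odds ran from 0.09 to 0.23 up to 80 Mb, was 0.28 between 80 and 90 Mb and 0.35 to 0.45 beyond. The boundary at 80 Mb was chosen after these values were seen, and 1 library allows no test. In iXist-ChrX-Dom the medians of both stretches were alike, at 63.4% to 64.3% and 63.2% to 64.0% over the 4 libraries.

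**Figure D5:**
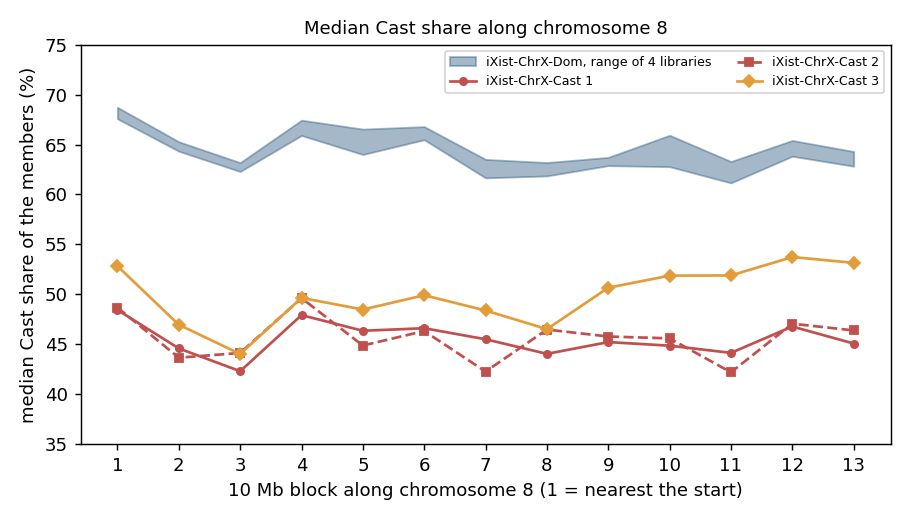
Median Cast share (%) of the members in 13 blocks of 10 Mb along chromosome 8, for each iXist-ChrX-Cast library and as the range of the 4 iXist-ChrX-Dom libraries (band). Replicate 3 (orange) runs near replicates 1 and 2 in the proximal blocks and reaches 50.7% to 53.7% in the last 5.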

How the data were processed

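ChrRNA-seq fragments were aligned by the authors to mm10 with hybrid SNP positions masked, using STAR 2.4.2a once rRNA reads were removed with Bowtie2 2.3.2, sorted by allele, and counted per gene with featureCounts using strand. The deposited counts per gene (all, Cast and Dom) of 4 iXist-ChrX-Dom and 3 iXist-ChrX-Cast libraries were used. The authors also deposited X-linked allelic ratios as fractions, 2181 values, which equal the ratio of the deposited counts and were otherwise not used here. The members and gene lists were chosen with earlier results of these data known.

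edgeR 4.0.16 quasi-likelihood tests (R 4.3.3) were run over all genes: on the Cast and Dom counts, as the interaction of allele and line with a term per library (9197 genes with at least 50 allelic fragments in all 7 libraries), and on total counts after TMM scaling and filterByExpr (15384 genes). For departures, the median of the gene's own chromosome entered as an offset. P-values are two-sided and Benjamini-Hochberg adjusted over all genes, threshold 0.05. CPM use TMM library sizes. Logs of single-library totals and odds add 0.5, and logs of single-library allele levels add 0.05. Intervals cover 95%. The tests were checked on simulated counts of autosomal genes, with departures larger than most of those reported and no difference between sample sets. This check does not cover smaller departures.

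Genes named were those past a departure test in which all libraries lay apart once the chromosome median was removed (up to 6 in each direction), the 2 members of highest CPM in each list, and the 3 nearest the medians. Alternatives were other libraries, covariates, scalings, filters, nulls, limma 3.58.1 and DESeq2 1.42.0. Same-numbered libraries of the 2 lines deviated together (r = 0.358, 0.310 and 0.510 over autosomal genes), as did replicate 1 of one line with replicate 2 of the other (0.353 and 0.438). The highest r was that of iXist-ChrX-Cast replicate 3 with iXist-ChrX-Dom replicate 4 (0.548). Between replicates 1 and 2 of one line and replicates 3 or 4 of the other, r was -0.541 to -0.295. The descriptions in the labels of iXist-ChrX-Dom replicates 3 and 4 name day 1, whereas their titles name day 10. The titles were followed. Counting error alone is covered by depth. The values of 1 gene that the naming rule chose are not reported here.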

Additional observations from a re-analysis of the deposited data

Results flagged for a closer look

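The Cast share of Triml2 in iXist-ChrX-Dom replicate 2 stood apart from the other 3 libraries of its line by Dixon's criterion, at 18.6% against a median of the 4 of 25.9% and a highest value of 26.7%. Without this library the departure of Triml2 from the chromosome still passed, as it did without each of the others. In all, 58 sets of 4 libraries were screened in this way, and chance alone marks about 1 in 20.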

How the results depend on the processing

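The median share shift was 1.08 and the median total 0.44 (log2). With all 7 libraries they were 0.99 and 0.36, and with scaling on the comparison autosomes the total was 0.39. Leaving out 1 library gave 1.076 to 1.084 and 0.41 to 0.46. Departures in share (10) numbered 3 with limma, 2 with DESeq2, 5 with autosomal genes alone and 1 to 16 when 1 library was left out. Against a shift of 1 they numbered 7, with 5 above and 2 below. Departures in total (12) numbered 3 with all 7 libraries, 31 with the sample set as a covariate, 25 against a null of 1.5-fold, 27 with DESeq2 and 1 to 17 when 1 library was left out. Against no difference, totals called (183) numbered 73 with all 7 libraries, 282 with the sample set and 3 to 191 when 1 library was left out. With the replicate block, 28 genes departed in total, 11 in share, and 265 totals and 477 shares differed from no change. The block ended the share departures of Cdyl2, Def8 and 6820431F20Rik and no other call among the named departures. The other counts stayed within 1.5 times, no gene changed direction, and 238 of 349 repeats of single departures kept their call. The cause of these differences was not tested. Calls rest on 2 iXist-ChrX-Cast libraries, which also have the fewest allelic fragments per gene.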
